A study of Mus musculus with 12 samples.

Results

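Transcripts of 40 genes of central carbon metabolism were followed in mouse kidney. They comprised 13 genes of glycolysis, 5 of gluconeogenesis, 6 that act where pyruvate enters the mitochondrion, 15 of the citric acid cycle and its cytosolic counterparts, and Khk, the enzyme through which fructose enters these pathways. Each gene was found by its symbol in the annotation of the array platform, and its value came from its probe set, the group of probes that report on that gene. Of 42 listed genes, Gpi1 and Eno1 had no probe set named here and were not analysed. No measured gene had more than 1 probe set, and the 40 were part of 19505 named genes and 22206 probe sets on the array.

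Total RNA of whole kidney had been hybridised to Clariom S arrays, with 3 samples in each of 4 groups at a stated age of 16 weeks. Wild type mice had received vehicle. The other 3 groups were Alport mice, labelled with a COL4A5 nonsense allele (G5X, hemi), which had received vehicle, losartan or metformin. Col4a5 encodes a chain of type IV collagen in the basement membrane of the glomerulus, losartan blocks the angiotensin receptor, and metformin, a biguanide, is used to lower glucose in diabetes. Losartan was given in the drinking water at 125 and then 250 µg/mL, and metformin at 2.5 and then 5 mg/mL, with the change at week 12. The treatment text runs the later dose to week 20, past the stated age, and describes losartan as given together with another agent, so group names follow the drug that each sample title gives. None of the 12 samples came from wild type mice given either drug, so what the drugs do in wild type kidney could not be seen. No label states that each sample is a different mouse, and the p-values therefore reflect only sample-to-sample spread, some of which may be technical.

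Glycolysis splits glucose into pyruvate, and gluconeogenesis runs the path the other way through a few enzymes of its own. Pyruvate dehydrogenase passes pyruvate on to the citric acid cycle in the mitochondrion, where its carbon is oxidised. In the kidney, the proximal tubule makes glucose from lactate and amino acids and lives mainly on oxidation in mitochondria, while the more distal segments rely more on glycolysis.

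Values are log2 signals as deposited, so a difference of 1 is a 2-fold change, and levels are compared only within a gene. Sample medians ran from 5.88 to 6.065, and pairs of samples correlated over probe sets (Pearson; probe sets are not independent replicates) at 0.990 to 0.994 for samples of the same group and 0.975 to 0.993 otherwise. The mutated gene Col4a5 was dim, under the median in all 12 samples, and fell by 0.92 ± 0.23 in Alport vehicle against wild type (limma adjusted p = 0.0116). The tissue label was checked against markers. The 12 proximal tubule markers averaged 16.9 to 17.0 in the wild type samples, and markers of perirenal fat, skeletal muscle, adrenal gland and neutrophils averaged at most 5.23 in every sample. Perirenal fat reached that value in Alport vehicle sample 3, against at most 3.64 in wild type, and urothelium markers averaged 6.78 in the same sample against 4.64 to 5.61 in the others. Precision is limited by the number of arrays, with a typical (median) standard error of 0.198 for a log2 difference.

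In vehicle-treated Alport kidneys most genes of glucose production, the gene of fructose entry and some genes of pyruvate oxidation were lower than in wild type, while glycolysis genes moved in both directions. Of the 40 genes, 15 fell and 3 rose (limma, adjusted p under 0.05 over all probe sets). The 15 that fell were 4 of 5 gluconeogenesis genes, 3 of 6 genes of pyruvate entry, 6 of 15 cycle genes, the glycolytic Pfkm, and Khk. The 3 that rose, Hk1, Pfkp and Pkm, all belong to glycolysis. Over the whole array 7.71% of probe sets fell and 8.43% rose, so the share of the 40 genes that fell, 37.5%, was above that background and the share that rose, 7.5%, was near it. The median difference was -0.32 over the 40 genes and -0.03 over all probe sets, and over the 40 it was -0.12 after a new quantile normalization. In 24 of the 40, or 60%, the 3 Alport vehicle samples lay wholly above or wholly below the wild type samples, against 29.7% of all probe sets. Without Alport vehicle sample 1 the number that fell was 9. Centring each sample on its median moved the median over all probe sets to -0.17 and the calls over the array from 1871 higher and 1711 lower to 1451 and 2842, with 2 of the 40 genes higher and 19 lower. Every call was recomputed under 13 alternatives per comparison, which changed the scaling, the filter, the model or left out 1 sample, and a loss is given beside each call described for the 40 genes.

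Both drugs were compared with Alport vehicle. With losartan 7 of the 40 genes rose and 0 fell (limma), where 3.79% of all probe sets rose and 4.11% fell, 7.9% in either direction. At an unadjusted p under 0.05 the counts were 16 higher and 2 lower. No share of all probe sets is given at an unadjusted p, here or below, so such counts stand without a background. With metformin 7 rose and 0 fell (limma), against 2.67% and 2.27% of all probe sets, and 18 were higher and 1 lower at an unadjusted p under 0.05. In each case the share that rose was 17.5% of the genes, above that background. With centred samples the split over the array went from 842 higher and 913 lower to 1238 and 724 for losartan, and from 592 and 504 to 827 and 381 for metformin. The losartan samples did not overlap the Alport vehicle samples in 23 genes (array 23.1%), nor did the metformin samples in 19 (array 20.5%). The count for losartan was 4 without Alport vehicle sample 1 or without losartan sample 3, and 11 without Alport vehicle sample 2. The count for metformin was 4 without Alport vehicle sample 1 or without metformin sample 3. Each drug comparison uses the same Alport vehicle samples, as does the comparison with wild type, so each gene's values are set side by side and no overlap between them is drawn.

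**Figure D1:**
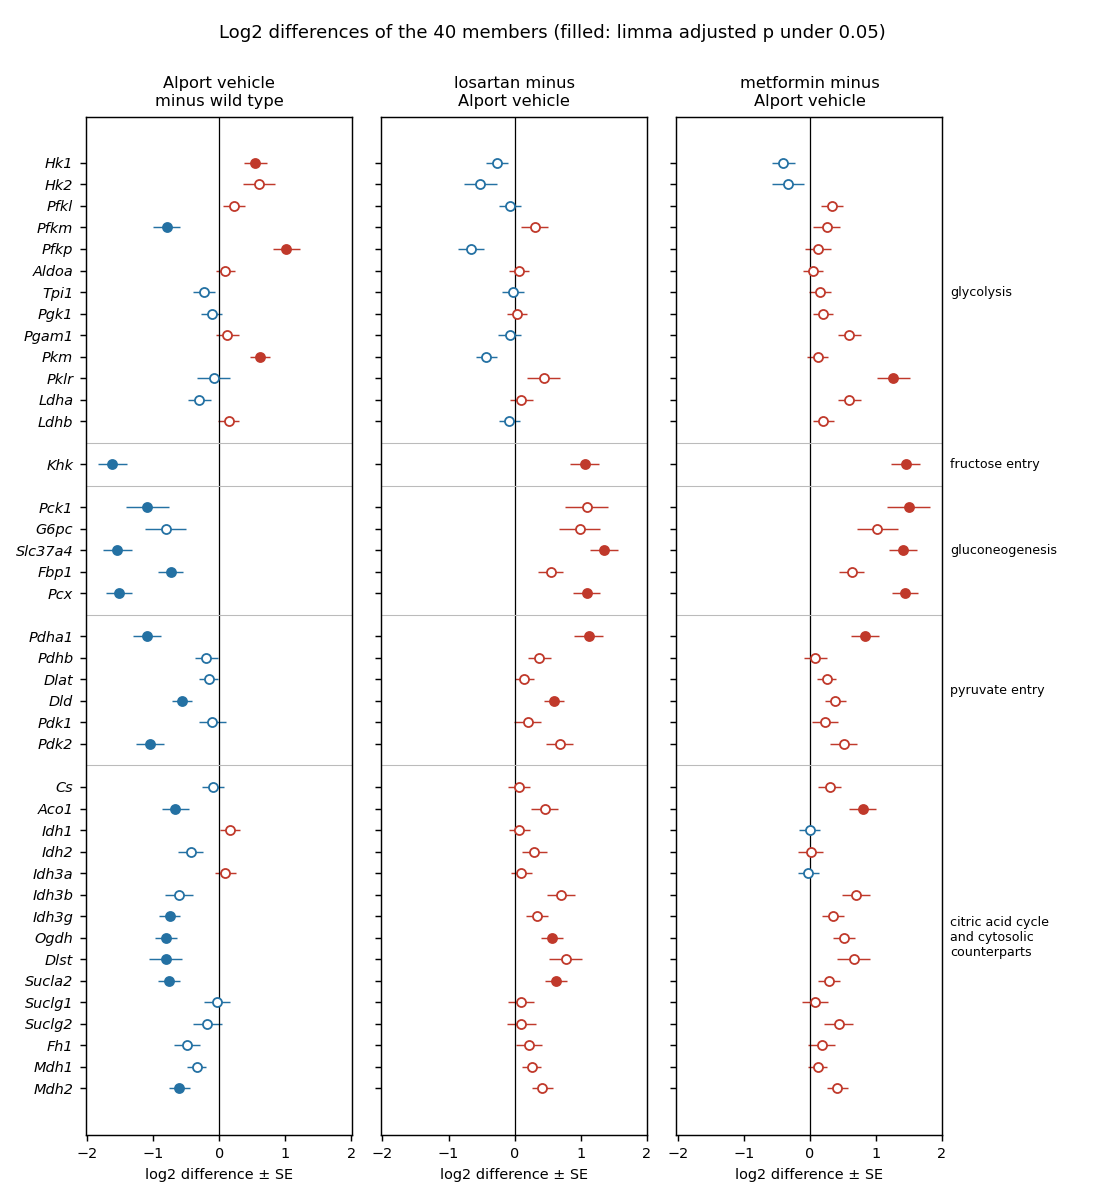
Log2 differences of the 40 genes in 3 comparisons, with 1 row per gene and bars for the standard error of the limma fit (n = 3 per group); filled points passed an adjusted p of 0.05. In the left panel 15 filled points lie below 0 and 3 above it, and in each of the other panels 7 filled points lie above 0 and none below.

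In glycolysis, 3 of 13 genes rose and 1 fell in Alport vehicle, where 8.43% of all probe sets rose and 7.71% fell. The median difference was 0.12 over the 13, or -0.02 with each sample centred on its median and 0.24 after a new quantile normalization. Hk1 encodes a hexokinase, which traps glucose in the cell by phosphorylation. It read 12.11, 12.52 and 12.21 in wild type samples 1, 2 and 3, 12.71, 12.95 and 12.82 in Alport vehicle, 12.67, 12.55 and 12.45 on losartan, and 12.22, 12.51 and 12.55 on metformin. All Alport vehicle samples lay above every other sample. Hk1 rose by 0.55 ± 0.17 in Alport vehicle against wild type (limma adjusted p = 0.0348). This call was lost with samples centred on their medians (0.11), with array weights (0.0538), in a fit of only the groups compared (0.0737), and without any single one of wild type samples 1 and 3 or of the Alport vehicle samples (0.0507 to 0.135). Against Alport vehicle the difference was -0.27 with losartan (adjusted p = 0.406) and -0.40 with metformin (0.204).

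Phosphofructokinase commits sugar to glycolysis, and its 3 isoform genes differed in direction. Pfkp, the platelet isoform, read 10.55, 9.93 and 10.14 in wild type, 11.42, 11.07 and 11.17 in Alport vehicle, 10.51, 10.73 and 10.45 on losartan, and 11.51, 11.53 and 10.98 on metformin. The Alport vehicle and metformin samples were high and the wild type and losartan samples low, with no overlap between the high and the low groups. Pfkp rose 2.02-fold in Alport vehicle against wild type (1.01 ± 0.20, limma adjusted p = 0.00215). The difference between losartan and Alport vehicle, -0.66 ± 0.20, missed the threshold (0.0569), and that between metformin and Alport vehicle was 0.12. The former passed after a new quantile normalization (0.0378), without the dimmest 33.3% of probe sets (0.0458) and with a trended robust variance prior (0.0395). Pfkm, the muscle isoform, read 10.43, 10.30 and 10.07 in wild type, 9.04, 9.77 and 9.60 in Alport vehicle, 9.59, 9.73 and 10 on losartan, and 9.49, 9.74 and 9.95 on metformin. Every Alport sample, treated or not, lay below the wild type samples. Pfkm fell by 0.80 ± 0.21 in Alport vehicle (limma adjusted p = 0.0133), a call that was lost without wild type sample 1 (0.0604) or Alport vehicle sample 1 (0.0772). Pfkl, the liver isoform, had group means of 9.77, 9.99, 9.92 and 10.33 in wild type, Alport vehicle, losartan and metformin and was not called in any of the 6 comparisons.

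Pkm and Pklr encode the pyruvate kinases that end glycolysis, Pkm in most tissues and Pklr in liver, red cells and the proximal tubule. Pkm read 13.19, 13.10 and 13.31 in wild type, 13.76, 13.89 and 13.80 in Alport vehicle, 13.42, 13.25 and 13.50 on losartan, and 13.94, 14.07 and 13.79 on metformin. As with Pfkp, both the Alport vehicle and the metformin samples lay above all wild type and losartan samples. Pkm rose by 0.62 ± 0.15 in Alport vehicle against wild type (limma adjusted p = 0.0109), and its difference between losartan and Alport vehicle was -0.43 ± 0.15 (adjusted p = 0.111, or 0.035 after a new quantile normalization). Pklr read 7.97, 8.11 and 7.87 in wild type, 8.02, 7.96 and 7.72 in Alport vehicle, 8.12, 8.61 and 8.29 on losartan, and 9.68, 9.37 and 8.43 on metformin. The wild type and Alport vehicle samples overlapped, and metformin samples 1 and 2 stood above every other sample, with sample 3 inside the losartan range. Pklr rose 2.39-fold with metformin against Alport vehicle (1.26 ± 0.25, limma adjusted p = 0.0101), and the call was lost only in a fit of these 2 groups alone (0.0512). Without metformin sample 3 the difference was 1.62.

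Pgam1, the phosphoglycerate mutase of lower glycolysis, read 12.00, 11.57 and 11.95 in wild type, 11.71, 12.06 and 12.12 in Alport vehicle, 11.70, 12.02 and 11.95 on losartan, and 12.60, 12.51 and 12.56 on metformin. The metformin samples were tightly grouped above all the others, which overlapped each other. The difference between metformin and Alport vehicle, 0.59 ± 0.18, missed the threshold (limma adjusted p = 0.0642). It passed with centred samples (0.0407) and with a trended robust variance prior (0.0389). RefSeq lists 2 pseudogenes under the symbol of Pgam1, so its own signal is uncertain, as it is for Aldoa, Pgk1, Ldha and Ldhb, which also have such entries. Ldha, a lactate dehydrogenase subunit, read 15.51, 15.33 and 15.46 in wild type, 15.30, 15.19 and 14.90 in Alport vehicle, 15.01, 15.44 and 15.24 on losartan, and 15.66, 15.58 and 15.93 on metformin. Its metformin samples too lay above all the others, with a difference of 0.59 ± 0.17 from Alport vehicle (limma adjusted p = 0.0629). That difference passed the threshold with centred samples (0.0411) and with the trended prior (0.021).

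With losartan 0 of the 13 glycolysis genes rose and 0 fell against Alport vehicle (limma), where 3.79% of all probe sets rose and 4.11% fell. At an unadjusted p under 0.05 the counts were 0 higher and 2 lower. The median over the 13 was -0.07, or 0.02 with centred samples and -0.13 after a new quantile normalization. Over the 9 that were not called in Alport vehicle against wild type, differences ran from -0.30 to 0.60, with limma adjusted p from 0.117 to 0.882. The 0.60 belonged to Hk2, the insulin-responsive hexokinase, whose group means were 4.94, 5.54, 5.02 and 5.21 in wild type, Alport vehicle, losartan and metformin. Hk2 lay below the median of every sample. Aldolase Aldoa moved from a mean of 16.01 in wild type to 16.10 in Alport vehicle, the phosphoglycerate kinase Pgk1 from 14.60 to 14.48, and the triose phosphate isomerase Tpi1 from 15.30 to 15.07. Ldhb, the lactate dehydrogenase subunit of oxidative tissue, had means of 14.58 and 14.72.

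**Figure D2:**
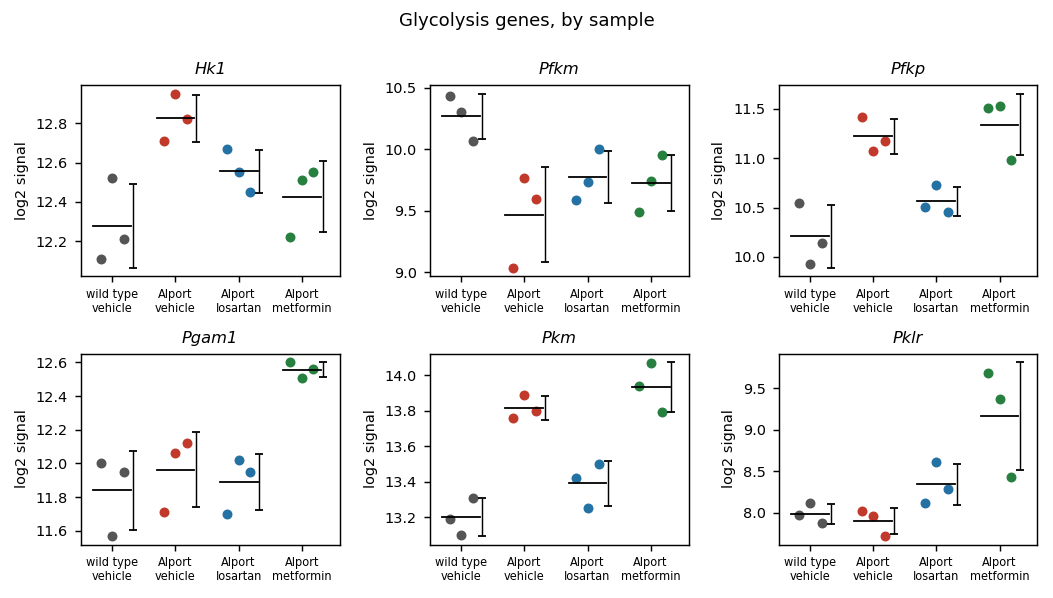
Log2 signal of 6 glycolysis genes in each sample, by group, with the group mean as a line and 1 SD as a bar (n = 3 per group). Pfkp and Pkm are high in Alport vehicle and metformin samples, Pfkm is highest in wild type, and Pklr and Pgam1 are highest in metformin samples.

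Khk, the ketohexokinase that phosphorylates fructose in the proximal tubule and liver, fell furthest of the 40 genes in Alport vehicle. It read 15.24, 15.08 and 15.27 in wild type, 13.21, 13.70 and 13.83 in Alport vehicle, 14.62, 14.75 and 14.56 on losartan, and 14.90, 14.65 and 15.55 on metformin. The Alport vehicle samples lay below every other sample, the losartan samples lay between them and wild type, and the metformin samples reached across the losartan and wild type ranges. Khk fell 3.07-fold against wild type (-1.62 ± 0.22, limma adjusted p = 9.73e-05). Against Alport vehicle it rose by 1.06 ± 0.22 with losartan (adjusted p = 0.00777) and by 1.45 ± 0.22 with metformin (0.00234).

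In gluconeogenesis, 4 of 5 genes fell in Alport vehicle against wild type, where 7.71% of all probe sets fell. The median difference was -1.09 (-0.03 over all probe sets), and all 5 had an unadjusted p under 0.05. Slc37a4 encodes the transporter that carries glucose phosphate into the endoplasmic reticulum for the last step of glucose release. It read 14.86, 14.38 and 14.65 in wild type, 12.63, 13.27 and 13.36 in Alport vehicle, 14.16, 14.78 and 14.38 on losartan, and 14.41, 14.55 and 14.54 on metformin. Alport vehicle alone was low, and the other 3 groups overlapped. Slc37a4 fell 2.91-fold (-1.54 ± 0.21, limma adjusted p = 0.000122), and against Alport vehicle it rose by 1.35 ± 0.21 with losartan (0.00159) and by 1.41 ± 0.21 with metformin (0.00244). Pcx, pyruvate carboxylase, makes the oxaloacetate from which glucose synthesis starts and which also refills the citric acid cycle. It read 14.74, 14.86 and 14.68 in wild type, 12.83, 13.65 and 13.25 in Alport vehicle, 14.06, 14.52 and 14.42 on losartan, and 14.63, 14.61 and 14.81 on metformin. The losartan samples stood between Alport vehicle and the overlapping wild type and metformin samples. Pcx fell 2.86-fold (-1.52 ± 0.20, limma adjusted p = 7.91e-05), and against Alport vehicle it rose by 1.09 ± 0.20 with losartan (0.0041) and by 1.44 ± 0.20 with metformin (0.00144).

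Pck1, the cytosolic phosphoenolpyruvate carboxykinase that sets the pace of glucose synthesis, read 15.69, 16.03 and 16.60 in wild type, 14.04, 15.72 and 15.29 in Alport vehicle, 16.14, 16.22 and 15.97 on losartan, and 16.74, 16.27 and 16.53 on metformin. Alport vehicle sample 1 was far below the others, and sample 2 just exceeded the lowest wild type sample. Pck1 fell by 1.09 ± 0.33 (limma adjusted p = 0.0306). This call was lost after a new quantile normalization (0.0822), with a trended robust variance prior (0.0785), with only these groups fitted (0.0703), and without Alport vehicle sample 1 (0.144) or wild type sample 2 (0.0642) or 3 (0.147). Against Alport vehicle, Pck1 rose 2.82-fold with metformin (1.50 ± 0.33, limma adjusted p = 0.0161). That call was lost with only these groups fitted (0.0574) and without Alport vehicle sample 1 (0.0567) or metformin sample 3 (0.0628). The difference with losartan, 1.09 ± 0.33, just missed the threshold (0.0506) and passed it with centred samples (0.0332).

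Fbp1, the fructose bisphosphatase, read 16.72, 16.42 and 16.53 in wild type, 15.44, 16.26 and 15.77 in Alport vehicle, 16.31, 16.38 and 16.41 on losartan, and 16.44, 16.40 and 16.52 on metformin. Those with Alport vehicle were lower and more widely spread than those of the other groups. Fbp1 fell by 0.73 ± 0.19 (limma adjusted p = 0.0135), a call that was lost after a new quantile normalization (0.0573) and without wild type sample 1 (0.0621) or Alport vehicle sample 1 (0.0772). The differences from Alport vehicle were 0.54 with losartan (0.0976) and 0.63 with metformin (0.0699). G6pc, the catalytic subunit of glucose phosphatase, read 16.14, 15.23 and 16.08 in wild type, 14.53, 15.07 and 15.42 in Alport vehicle, 15.58, 16.49 and 15.91 on losartan, and 16.15, 15.48 and 16.45 on metformin. Wild type sample 2 lay inside the Alport vehicle range, and the spread of G6pc within wild type (SD 0.509) was the widest of the 40 genes in that group. G6pc was not called, with -0.81 ± 0.31 in Alport vehicle (limma adjusted p = 0.092), 0.99 with losartan (0.0637) and 1.02 with metformin (0.0713).

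With losartan 2 of the 5 gluconeogenesis genes rose against Alport vehicle, and with metformin 3 did, where 3.79% and 2.67% of all probe sets rose. The list medians were 1.09 and 1.41, against 0.01 and -0.01 over all probe sets. In whole kidney RNA, fewer cells of a type and less RNA per cell cannot be told apart. Markers of the proximal tubule moved with these genes. Of 12, 10 were lower in Alport vehicle (median -0.83), 6 were higher with losartan (0.63) and 4 with metformin (0.60). In Alport vehicle 7.71% of all probe sets fell. The mean over the 12 markers ran from 16.9 to 17.0 in wild type, from 15.7 to 16.2 with Alport vehicle, from 16.6 to 16.9 with losartan and from 16.6 to 16.8 with metformin, and no marker lay below the lower quartile of its samples throughout a group. Their part in the result was not tested.

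**Figure D3:**
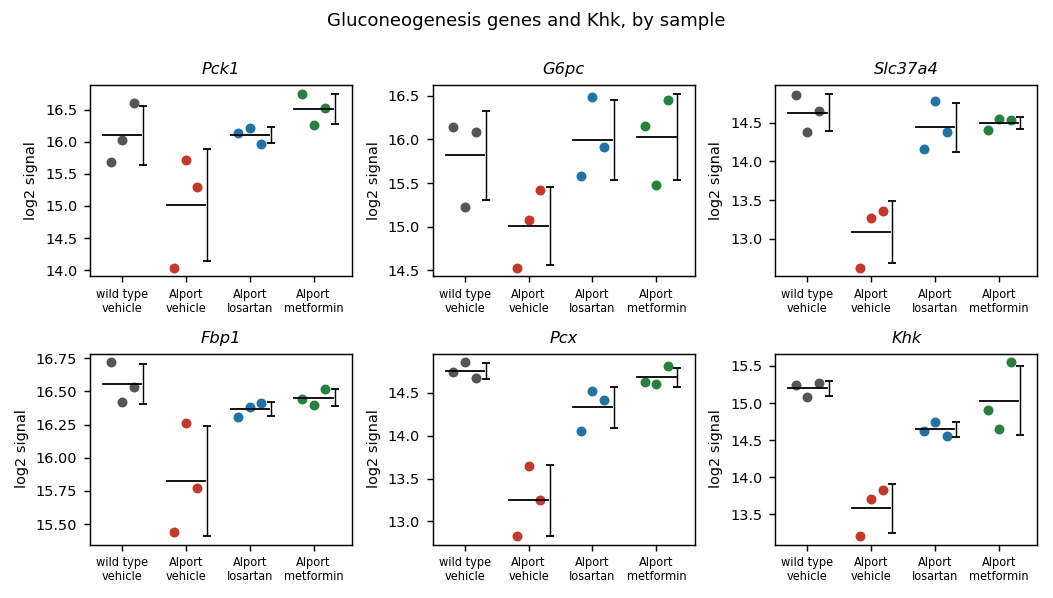
Log2 signal of the 5 gluconeogenesis genes and Khk in each sample, by group, with the group mean as a line and 1 SD as a bar (n = 3 per group). The Alport vehicle samples of Slc37a4, Pcx, Fbp1 and Khk lie below all wild type samples, while those of Pck1 and G6pc overlap with wild type.

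At the entry of pyruvate into the mitochondrion, 3 of 6 genes fell in Alport vehicle, where 7.71% of all probe sets fell. The median difference was -0.38, or -0.18 after a new quantile normalization. Pdha1 encodes the alpha subunit of the first enzyme of pyruvate dehydrogenase, the part that is switched off by phosphorylation. It read 13.51, 12.71 and 12.86 in wild type, 11.59, 12.08 and 12.13 in Alport vehicle, 12.83, 13.24 and 13.09 on losartan, and 12.90, 12.73 and 12.67 on metformin. Again Alport vehicle lay below every other sample, and the other groups overlapped. Pdha1 fell 2.13-fold (-1.09 ± 0.22, limma adjusted p = 0.0021) and rose by 1.12 ± 0.22 with losartan against Alport vehicle (0.00557). Its rise with metformin, 0.83 ± 0.22 (0.0374), was lost with only these groups fitted (0.0564), with a block for the replicate number (0.0613), and without Alport vehicle sample 1 (0.161) or metformin sample 1 (0.102), 2 (0.0816) or 3 (0.0893).

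Dld encodes the dihydrolipoamide dehydrogenase shared by pyruvate and oxoglutarate dehydrogenase. It read 15.67, 15.76 and 15.59 in wild type, 15.17, 15.25 and 14.91 in Alport vehicle, 15.77, 15.54 and 15.81 on losartan, and 15.53, 15.50 and 15.45 on metformin. Alport vehicle was lowest, metformin was next, and wild type and losartan overlapped at the top. Dld fell by 0.56 ± 0.16 (limma adjusted p = 0.0207), a call that was lost after a new quantile normalization (0.275), with only these groups fitted (0.0573), and without wild type sample 1 (0.0544) or 2 (0.0725) or Alport vehicle sample 3 (0.0909). With losartan it rose by 0.60 ± 0.16 against Alport vehicle (limma adjusted p = 0.0281). That call was lost after a new quantile normalization (0.127), with only these groups fitted (0.081), and without Alport vehicle sample 1 (0.0689) or 3 (0.105) or losartan sample 1 (0.0761) or 3 (0.105).

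Pdk2 encodes a kinase that switches pyruvate dehydrogenase off. It read 15.64, 16.19 and 16.01 in wild type, 14.58, 15.31 and 14.80 in Alport vehicle, 15.33, 15.75 and 15.66 on losartan, and 15.39, 15.31 and 15.53 on metformin. The Alport vehicle samples were low, touching metformin only through their sample 2, which tied with the lowest metformin sample. Pdk2 fell 2.07-fold (-1.05 ± 0.21, limma adjusted p = 0.00205). Against Alport vehicle the difference was 0.68 ± 0.21 with losartan (0.0542) and 0.51 ± 0.21 with metformin (0.183), and the former passed the threshold with the replicate block (0.0376). The subunit genes Pdhb and Dlat and the kinase gene Pdk1 differed between Alport vehicle and wild type by -0.20, -0.16 and -0.10, with limma adjusted p from 0.52 to 0.803.

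In the citric acid cycle and its cytosolic counterparts, 6 of 15 genes fell in Alport vehicle and 0 rose (limma). Over the array 7.71% of probe sets fell and 8.43% rose. The median difference was -0.48 over the 15, against -0.03 over all probe sets. At an unadjusted p under 0.05 the counts were 10 lower and 0 higher. Ogdh and Dlst encode subunits of oxoglutarate dehydrogenase, a control point of the cycle. Ogdh read 16.78, 16.46 and 16.62 in wild type, 15.75, 16.06 and 15.62 in Alport vehicle, 16.21, 16.47 and 16.45 on losartan, and 16.27, 16.40 and 16.31 on metformin. The groups were ordered with Alport vehicle at the bottom, wild type at the top and both drug groups between, where only losartan overlapped wild type. Ogdh fell by 0.81 ± 0.17 (limma adjusted p = 0.00292) and rose by 0.57 ± 0.17 with losartan against Alport vehicle (0.0483). That rise was lost in 8 of the 13 alternatives, with a new quantile normalization (0.163), array weights (0.0519), the replicate block (0.0732), a fit of only these groups (0.109), and without Alport vehicle sample 1 (0.145) or 3 (0.159) or losartan sample 2 (0.167) or 3 (0.143). Dlst read 11.07, 11.05 and 10.78 in wild type, 9.46, 10.70 and 10.31 in Alport vehicle, 10.79, 11.22 and 10.79 on losartan, and 11.02, 10.70 and 10.75 on metformin. Alport vehicle sample 1 stood far below its group, and the wild type and losartan samples lay above all 3. Dlst fell by 0.81 ± 0.25 (limma adjusted p = 0.0359), which was lost with only these groups fitted (0.0714), without Alport vehicle sample 1 (0.18) or 3 (0.0529), and without any single wild type sample (0.0529 to 0.11).

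Sucla2 encodes a subunit of succinyl-CoA synthetase. It read 5.77, 5.76 and 5.90 in wild type, 4.87, 5.35 and 4.93 in Alport vehicle, 5.74, 5.71 and 5.60 on losartan, and 5.47, 5.37 and 5.18 on metformin. The values lay below the sample median in 11 of 12 samples, where signals are dim. Alport vehicle overlapped only metformin, and losartan lay just below wild type. Sucla2 fell by 0.76 ± 0.17 (limma adjusted p = 0.00469) and rose by 0.63 ± 0.17 with losartan against Alport vehicle (0.0285). The rise was lost with only these groups fitted (0.0739), without Alport vehicle sample 1 (0.125) or 3 (0.0915), and without any single losartan sample (0.0599 to 0.0979). The other subunit genes of succinyl-CoA synthetase, Suclg1 and Suclg2, differed by -0.03 and -0.18 in Alport vehicle and were not called.

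The isocitrate dehydrogenases split by gene. Idh3g, a regulatory subunit of the enzyme that works in the cycle itself, read 16.00, 16.16 and 16.33 in wild type, 15.40, 15.65 and 15.18 in Alport vehicle, 15.67, 15.81 and 15.77 on losartan, and 15.74, 15.70 and 15.84 on metformin. All Alport groups lay below wild type, with vehicle lowest. Idh3g fell by 0.75 ± 0.16 (limma adjusted p = 0.00453). Idh3b, another regulatory subunit, read 13.63, 13.45 and 13.20 in wild type, 12.36, 12.98 and 13.11 in Alport vehicle, 13.19, 13.69 and 13.68 on losartan, and 13.49, 13.35 and 13.69 on metformin. Its Alport vehicle samples lay below every other sample, but -0.61 ± 0.21 missed the threshold (limma adjusted p = 0.0654), as did 0.70 with losartan (0.0559) and 0.69 with metformin (0.076). Each passed it with the trended prior (0.0346, 0.0269 and 0.0389). The catalytic subunit gene Idh3a differed by 0.09, the cytosolic Idh1 by 0.16 and the mitochondrial Idh2 by -0.43 in Alport vehicle, none of them called.

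Mdh2, the mitochondrial malate dehydrogenase, read 14.84, 14.80 and 14.76 in wild type, 14.14, 14.42 and 14.03 in Alport vehicle, 14.57, 14.75 and 14.53 on losartan, and 14.68, 14.50 and 14.66 on metformin. Every sample of a drug group lay between the Alport vehicle and the wild type samples. Mdh2 fell by 0.60 ± 0.16 (limma adjusted p = 0.0143), which was lost after a new quantile normalization (0.0555) and without Alport vehicle sample 1 (0.0503) or 3 (0.0625). The cytosolic Mdh1 differed by -0.34 (0.138). Aco1, the cytosolic aconitase that doubles as an iron sensor, read 15.12, 14.75 and 14.92 in wild type, 14.05, 14.63 and 14.11 in Alport vehicle, 14.30, 14.97 and 14.88 on losartan, and 15.07, 15.03 and 15.08 on metformin. The metformin samples were tightly grouped and the losartan samples spread across the Alport vehicle and wild type ranges. Aco1 fell by 0.67 ± 0.20 in Alport vehicle (limma adjusted p = 0.0347) and rose by 0.80 ± 0.20 with metformin against it (0.0355). The fall was lost after a new quantile normalization (0.0907), with only these groups fitted (0.0511), and without wild type sample 1 (0.133) or 3 (0.0828) or Alport vehicle sample 1 (0.135) or 3 (0.116). The rise was lost with only these groups fitted (0.0635), without Alport vehicle sample 1 (0.142) or 3 (0.101), and without any single metformin sample (0.0779 to 0.114).

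Among the remaining cycle genes, citrate synthase Cs, which starts the cycle, had group means of 13.36, 13.27, 13.34 and 13.57 in wild type, Alport vehicle, losartan and metformin. Fumarase Fh1 had means of 13.03, 12.55, 12.76 and 12.72. Over the 9 cycle genes not called in Alport vehicle, differences ran from -0.61 to 0.16, with limma adjusted p from 0.0654 to 0.944. In the cycle group 2 of 15 genes rose with losartan and 1 with metformin, where 3.79% and 2.67% of all probe sets rose. The median over the 15 was 0.30 in each comparison. After a new quantile normalization these medians were 0.15 and 0.19, with 10 of 15 differences above 0 in each, against 15 and 13 as deposited.

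**Figure D4:**
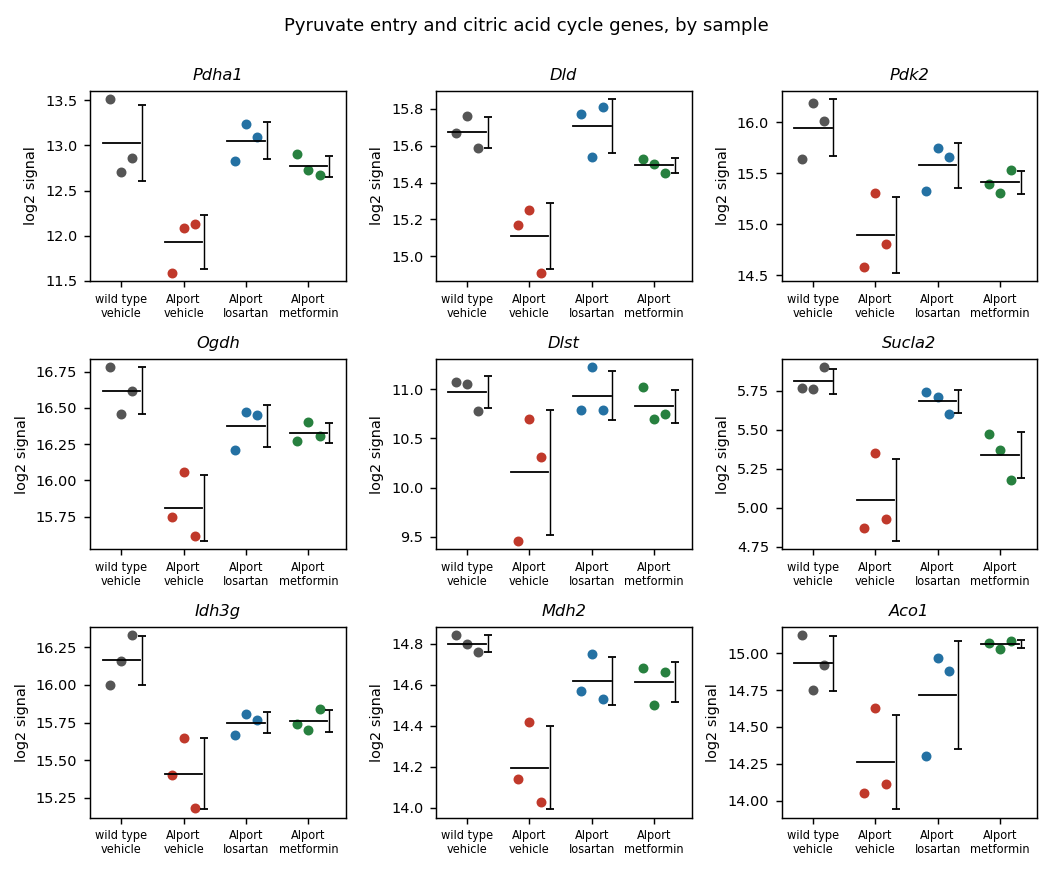
Log2 signal of 9 genes of pyruvate entry and the citric acid cycle in each sample, by group, with the group mean as a line and 1 SD as a bar (n = 3 per group). The Alport vehicle samples lie below all wild type samples in every panel, and the distance of the drug groups from wild type differs by gene, from overlapping in Pdha1 to separate in Idh3g.

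The samples of a group kept a partly common order across these genes. Of the 15 genes that fell in Alport vehicle, sample 1 of that group was the lowest for 11 and sample 2 the highest for 12, counting ties. Among the losartan samples, sample 1 was lowest for 10 and sample 2 highest for 11, and among the metformin samples, sample 2 was lowest for 9. The mean over the proximal tubule markers was 15.7, 16.2 and 16.1 in Alport vehicle samples 1, 2 and 3, and 16.6, 16.9 and 16.8 with losartan, so the same samples were lowest and highest. In the metformin group it was 16.6, 16.7 and 16.8. The part of these markers in the order of the samples was not tested. The median SD over the 40 genes was 0.161 in wild type, 0.233 with Alport vehicle, 0.155 with losartan and 0.137 with metformin, and Pck1 in Alport vehicle had the largest SD of all, 0.873.

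Losartan and metformin were also compared directly. The question is whether the 2 drugs left these genes at different levels. None of the 40 genes was called (limma, 0 higher and 0 lower, where 0.018% and 0.027% of all probe sets were called, 0.045% in either direction), and at an unadjusted p under 0.05 the counts were 6 higher and 0 lower with metformin. All 6 belong to glycolysis, and the share of all probe sets at that threshold is not given here. The differences were 0.82 ± 0.25 for Pklr (95% confidence interval 0.29 to 1.35, limma adjusted p = 0.368), 0.78 ± 0.20 for Pfkp (0.35 to 1.20, 0.267), and 0.67 ± 0.18 for Pgam1 (0.30 to 1.04, 0.278). For Pkm it was 0.54 ± 0.15 (0.22 to 0.87, 0.335), for Ldha 0.49 ± 0.17 (0.12 to 0.86, 0.453), and for Pfkl 0.41 ± 0.17 (0.06 to 0.76, 0.521). These intervals are not adjusted for the number of genes. Without metformin sample 3, Pklr alone was called (1.19, limma adjusted p = 0.0158).

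Outside glycolysis the direct difference between the drugs was small for most genes, and the intervals show how large a difference these samples leave possible. Slc37a4 differed by 0.06 (95% confidence interval -0.40 to 0.52), Pck1 by 0.40 (-0.29 to 1.09), Pcx by 0.35 (-0.07 to 0.77), Khk by 0.39 (-0.07 to 0.85) and Pdha1 by -0.29 (-0.74 to 0.17). The cycle genes ran from -0.34 to 0.34. Metformin and losartan samples did not overlap in 14 of the 40 genes, 10 with metformin above and 4 below, against 13.5% of all probe sets. The median difference was 0.28 over the 13 glycolysis genes and -0.01 over all probe sets.

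Each drug group was then set against wild type, which asks how far the treated Alport kidneys stood from the healthy level. With losartan, 0 of the 40 genes were called higher and 0 lower (limma), where 0.401% and 0.149% of all probe sets were called. At an unadjusted p under 0.05, 0 were higher and 4 lower, namely Pfkm (-0.49), Pcx (-0.43), Idh3g (-0.41) and Khk (-0.55). The losartan and wild type samples did not overlap in 12 genes (array 16.7%). With metformin 4 genes were higher and 0 lower (limma), against 2.7% and 1.48% of all probe sets, 4.18% in either direction. At an unadjusted p under 0.05 the counts were 6 higher and 5 lower, and the 2 groups did not overlap in 15 genes (array 22.8%). With centred samples the split over the array went from 599 higher and 329 lower to 513 and 486.

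All 4 genes above the wild type level with metformin belong to glycolysis. Pfkp was higher by 1.13 ± 0.20 (limma adjusted p = 0.00468). Pklr was higher by 1.18 ± 0.25 (0.0144), which was lost without wild type sample 3 (0.0701) or metformin sample 1 (0.0855) or 2 (0.0687). Pkm was higher by 0.73 ± 0.15 (0.0132), lost without wild type sample 2 (0.0581) or metformin sample 1 (0.0576) or 2 (0.0644). Pgam1 was higher by 0.72 ± 0.18 (0.03), lost without wild type sample 2 (0.129) or 3 (0.0703) or any single metformin sample (0.0577 to 0.113). The count was 2 without wild type sample 2 or 3 and 1 without metformin sample 1 or 2. Over the 13 glycolysis genes the median difference from wild type was 0.29 with metformin and 0.08 with losartan (0.04 with centred samples), against -0.03 and 0.00 over all probe sets.

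Markers of other cells were measured beside the glycolysis genes. The array shares beside their counts are 8.43% that rose in Alport vehicle, 4.11% that fell with losartan and 2.27% that fell with metformin. Against wild type, 2.7% of all probe sets rose with metformin and 0.401% with losartan. The 6 fibroblast and myofibroblast markers averaged 8.18 to 8.51 in wild type, 12.5 to 12.8 with Alport vehicle, 9.98 to 10.4 with losartan and 10.3 to 11.2 with metformin. All 6 were higher in Alport vehicle and lower with each drug. The 7 macrophage markers averaged 6.59 to 6.82, 8.79 to 10.2, 7.84 to 8.28 and 8.17 to 9.43 in the same order of groups, with 6 of 7 higher in Alport vehicle, 5 lower with losartan and 0 lower with metformin (limma). The 6 tubular injury markers averaged 5.68 to 5.95, 10.5 to 11.9, 8.60 to 9.50 and 8.54 to 11.0. All 6 were higher in Alport vehicle, 5 were lower with losartan and 1 with metformin. Within the metformin group the injury mean was 11.0, 10.5 and 8.54 and the macrophage mean 9.43, 8.94 and 8.17 in samples 1, 2 and 3. Pklr, Pfkp and Pkm were lowest in sample 3 as well, while Ldha, Hk1 and Pfkm were highest in sample 3 and Pgam1 was lowest in sample 2. The 5 cell cycle markers averaged 4.91 to 5.08 in wild type, 6.81 to 7.12 with Alport vehicle, 5.30 to 5.59 with losartan and 5.52 to 6.62 with metformin. Of these 5, 5 were higher in Alport vehicle, 4 were higher with metformin than in wild type and 0 with losartan (limma, with 2 higher at an unadjusted p under 0.05). The 4 thick ascending limb markers averaged 13.9 to 14.0 in wild type, 14.0 to 14.3 with Alport vehicle, 13.9 to 14.4 with losartan and 14.5 in every metformin sample. Against wild type 0 of the 4 were called with metformin (limma), although all 4 had higher values in every metformin sample and an unadjusted p under 0.05 (median 0.55). The part of these cells in the glycolysis values was not tested.

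**Figure D5:**
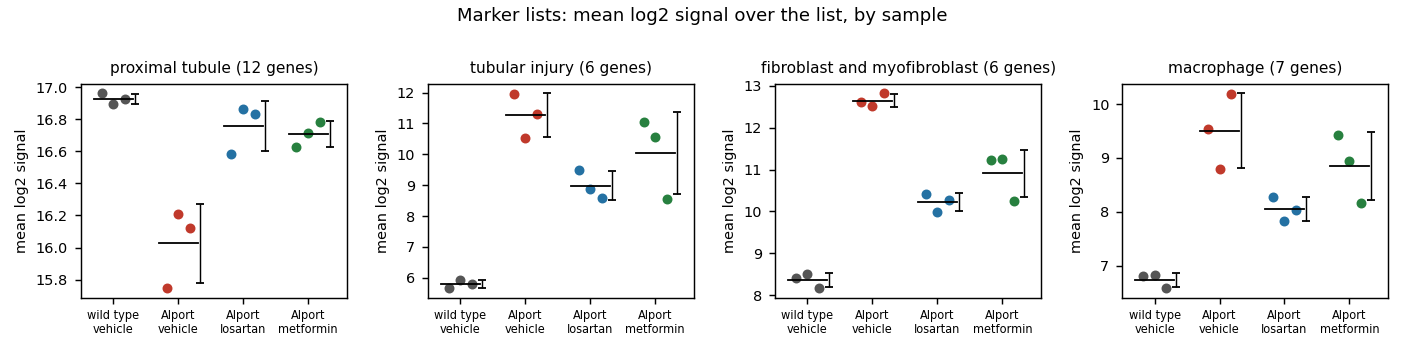
Mean log2 signal over 4 marker lists in each sample, by group, with the group mean as a line and 1 SD as a bar (n = 3 per group). The proximal tubule list is lowest with Alport vehicle, the other 3 lists are highest there, and metformin sample 3 is the lowest of its group for injury, fibroblast and macrophage markers.

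Other genes of the same pathways were taken from lists chosen by function. The array shares beside their counts in Alport vehicle are 7.71% that fell and 8.43% that rose. Of 13 other glycolytic enzymes 2 fell in Alport vehicle, the muscle phosphoglycerate mutase Pgam2 (-1.21 ± 0.25, limma adjusted p = 0.00307) and the D-lactate dehydrogenase Ldhd (-0.72 ± 0.22, 0.0367). Ldhd was not called after a new quantile normalization (0.129), with only these groups fitted (0.0707), or without any single wild type sample or Alport vehicle sample 1 (0.0653 to 0.186). Pgam2 rose by 1.07 with metformin against Alport vehicle (limma adjusted p = 0.0228), a call lost in 5 of 13 alternatives. Aldoc, another gene of this list, was higher with metformin than in wild type by 1.04 (limma adjusted p = 0.034), lost in 6. Of 5 other genes of gluconeogenesis and fructose use, 3 fell in Alport vehicle, namely the glycerate kinase Glyctk (-1.08 ± 0.18, 0.000556), the triose kinase Tkfc (-0.75 ± 0.17, 0.00486) and the ubiquitous glucose phosphatase G6pc3 (-1.16 ± 0.27, 0.00639). The mitochondrial Pck2 rose by 0.50 ± 0.16 (0.0452), a call that 10 of the alternatives ended (0.0618 to 0.166). Tkfc acts on the fructose carbon that Khk has phosphorylated. It read 13.59, 13.73 and 13.73 in wild type, 12.72, 13.25 and 12.82 in Alport vehicle, 13.38, 13.41 and 13.24 on losartan, and 14.01, 14.02 and 14.14 on metformin. The metformin samples of Tkfc lay above all wild type samples, and against Alport vehicle it rose by 1.13 ± 0.17 with metformin (limma adjusted p = 0.00213), while the difference with losartan was 0.41 (0.16). Glyctk rose with both drugs against Alport vehicle, by 0.99 with losartan (limma adjusted p = 0.00386) and by 0.94 with metformin (0.00819). The latter call was lost without metformin sample 3 (0.0504). G6pc3 was called with neither drug.

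Of 16 other genes of the cycle and the malate shuttle, 8 fell in Alport vehicle and 0 rose (limma, with 10 lower and 0 higher at an unadjusted p under 0.05), with a median of -0.52. Among them were the succinate dehydrogenase subunit Sdha (-0.97 ± 0.21, adjusted p = 0.00482), the dicarboxylate carrier Slc25a10 (-0.97 ± 0.19, 0.00173) and the aspartate carriers Slc25a12 (-0.86 ± 0.19, 0.00406) and Slc25a13 (-1.03 ± 0.24, 0.0073). Each of these 4 held under every alternative. Of the other 4, Got1 was lost in 5 of 13 alternatives, and Sdhc, Me1 and Got2 in 1 each. With losartan 3 of the 16 rose (Sdha, Me1 and Slc25a13), but Sdha was lost in 5 alternatives, Me1 in 4 and Slc25a13 in 2. With metformin 5 rose and 1 fell, where Slc25a11 was lost in 9 alternatives, Got1 in 8, Sdha in 3 and Slc25a10 in 2. The array shares beside these counts are the 7.71% that fell in Alport vehicle, 3.79% that rose with losartan and 2.67% that rose with metformin. Me3, a mitochondrial malic enzyme picked out after its values were seen, read 10.54, 10.49 and 10.48 in wild type, 10.25, 10.65 and 10.28 in Alport vehicle, 10.50, 10.67 and 11.03 on losartan, and 11.28, 11.46 and 11.63 on metformin. Its metformin samples lay above every other sample, and it rose by 1.06 ± 0.18 with metformin against Alport vehicle (limma adjusted p = 0.00456). The fall with metformin was in Acly, the citrate lyase that feeds fatty acid synthesis and was likewise named after its values were seen (-0.78 ± 0.19, 0.0272). It was not called without Alport vehicle sample 1 or 3 or metformin sample 1 or 3 (0.0549 to 0.117).

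Of 7 other genes of pyruvate entry, 1 fell in Alport vehicle, the phosphatase regulator Pdpr (-0.87 ± 0.19, limma adjusted p = 0.00455), where 7.71% of all probe sets fell. The kinase genes Pdk3 and Pdk4 split with losartan, where Pdk3 rose by 0.93 ± 0.21 against Alport vehicle (0.0147) and Pdk4 fell by 0.97 ± 0.28 (0.0416). With metformin Pdk3 rose by 0.85 ± 0.21 (0.0326), lost in 5 of 13 alternatives, and the phosphatase gene Pdp2 differed from wild type by -0.87 ± 0.22 (0.0364), lost in 6. Pdk3 was not called without Alport vehicle sample 1 (0.0771) or losartan sample 2 (0.069), nor Pdk4 with centred samples, array weights or the replicate block (0.055 to 0.0567) or without any single one of Alport vehicle samples 1 and 3 and losartan samples 1 and 3 (0.0831 to 0.185). Of 12 genes of the pentose phosphate and glycerol branches, the glycerol phosphate dehydrogenase Gpd1 (-0.86 ± 0.18, 0.00385) and the phosphoglucomutase Pgm1 (-0.81 ± 0.19, 0.00621) fell in Alport vehicle. Against Alport vehicle, Gpd1 rose by 0.94 with metformin (limma adjusted p = 0.00903), lost in 1 of 13 alternatives. Pgm1 rose by 0.72 with losartan (0.0256), lost in 5, and Pgm2 of the same list fell by 0.57 with losartan (0.0495), lost in 12.

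Transcription factors linked to these pathways were measured too. Of 12, 5 fell and 2 rose in Alport vehicle, where 7.71% of all probe sets fell and 8.43% rose, and 1 of the 5, the coactivator Ppargc1a (-0.48, limma adjusted p = 0.0482), was lost in 8 of 13 alternatives (up to 0.265). Hnf4a, a factor that drives genes of the proximal tubule and is itself on the marker list of that segment, read 15.13, 15.09 and 15.11 in wild type, 13.52, 14.04 and 13.83 in Alport vehicle, 15.00, 15.10 and 14.94 on losartan, and 14.59, 14.64 and 14.65 on metformin. Alport vehicle was lowest, metformin came next without overlap, and losartan reached the wild type range. Hnf4a fell by 1.31 ± 0.16 in Alport vehicle (limma adjusted p = 4.16e-05) and rose by 1.22 ± 0.16 with losartan (0.00053) and by 0.83 ± 0.16 with metformin (0.00889) against it, the last of which was lost in a fit of only those groups (0.0503). Myc, a growth-promoting factor that can activate glycolysis genes, read 7.74, 8.38 and 8 in wild type, 11.19, 10.17 and 10.60 in Alport vehicle, 9.19, 9.08 and 9.26 on losartan, and 10.76, 10.25 and 9.99 on metformin. The Alport vehicle and metformin samples of Myc were high and overlapped, and the losartan samples lay between them and wild type. Myc rose by 2.61 ± 0.25 in Alport vehicle (limma adjusted p = 5.23e-06) and fell by 1.48 ± 0.25 with losartan against it (0.00253), while the difference with metformin was -0.32 (0.568). The related coactivator Ppargc1b (-1.24 ± 0.19, 0.000233) and the nuclear receptor Ppara (-1.62 ± 0.28, 0.000761), both known for genes of mitochondrial oxidation, fell in Alport vehicle. Mlxipl fell furthest of the 12 (-1.75, limma adjusted p = 0.00132), and Hif1a rose by 0.78 (0.00815). Both calls held under every alternative.

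Promoter sequence was read from RefSeq windows (GRCm38.p6) of 250 bases before to 50 after each gene start, which were found for 39 of the 40 genes, all but Idh3a, with 59 windows in all. Motifs were searched as exact letters on both strands. The core of the hypoxia response element was searched in its forms ACGTG and also GCGTG. The E-box, CACGTG, contains the first of these, and AAGTCCA is part of the HNF4 element. ACGTG occurred in a window of 38.5% of the genes and of 61.5% of the 13 glycolysis genes, against 21.8% of all genes in the table. A gene with several windows has more chances to match. By window the shares for ACGTG were 37.3%, 45.5% and 19.6% in the same order. GCGTG occurred in 43.6% of the genes against 35.2%, and CACGTG in 15.4% against 8.09%. Of the 15 genes that fell in Alport vehicle, a set picked by these same values, 33.3% had CACGTG. By window that share was 25.9%, against 7.15% of all windows. ACGTG was not particular to glycolysis, since 44.4% of the windows of these 15 genes held it, near the 45.5% of the glycolysis windows. By gene it occurred in 6 of these 15, and in 8 of the 13 glycolysis genes. The HNF4 stretch AAGTCCA occurred in 2.56% of the genes against 4.7%. A match is a description of the letters and was not tested. The 250 bases before the start are shown for Khk, which fell furthest, Pdha1, which fell in Alport vehicle and rose with both drugs, Pfkp, which was higher in Alport vehicle and metformin, and Pgam1, which was higher with metformin. They run 5′ to 3′ on the strand of the gene, with the searched motifs on either strand in capitals.

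Khk (chr5:30921309-30921558, plus strand): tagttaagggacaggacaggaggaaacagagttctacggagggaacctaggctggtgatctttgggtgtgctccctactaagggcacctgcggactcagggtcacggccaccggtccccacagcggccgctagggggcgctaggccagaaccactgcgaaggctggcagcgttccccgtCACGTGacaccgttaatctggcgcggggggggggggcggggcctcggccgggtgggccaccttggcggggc
Pdha1 (chrX:160138431-160138680, minus strand): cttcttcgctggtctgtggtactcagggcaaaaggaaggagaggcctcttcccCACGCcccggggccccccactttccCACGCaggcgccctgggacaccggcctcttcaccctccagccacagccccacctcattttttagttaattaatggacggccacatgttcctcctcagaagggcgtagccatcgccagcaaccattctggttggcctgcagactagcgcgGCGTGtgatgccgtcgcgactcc
Pfkp (chr13:6648772-6649021, minus strand): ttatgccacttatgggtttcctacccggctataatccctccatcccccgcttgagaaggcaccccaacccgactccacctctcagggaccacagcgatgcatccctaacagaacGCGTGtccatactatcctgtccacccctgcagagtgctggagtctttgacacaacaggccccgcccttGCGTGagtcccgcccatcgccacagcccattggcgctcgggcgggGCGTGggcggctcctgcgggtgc
Pgam1 (chr19:41911621-41911870, plus strand): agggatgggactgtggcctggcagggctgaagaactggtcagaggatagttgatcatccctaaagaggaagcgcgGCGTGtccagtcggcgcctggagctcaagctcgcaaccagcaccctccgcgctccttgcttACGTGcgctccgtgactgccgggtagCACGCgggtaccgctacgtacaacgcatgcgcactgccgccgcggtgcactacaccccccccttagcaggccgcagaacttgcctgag

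The Khk sequence holds 1 E-box, whose letters also match the hypoxia response core ACGTG on both strands. Each of the others holds 3 separate matches to a hypoxia response core. Khk and Pgam1 lie on the plus strand and Pdha1 and Pfkp on the minus strand of their chromosomes.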

How the data were processed

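The authors deposited log2 values for 22206 probe sets in 12 samples of mouse kidney RNA, made with Transcriptome Analysis Console 4.0 per the submitters' processing notes. The log2 scale was read from the range of the values, while no source used here states how background was corrected or arrays were normalized. The platform annotation named 19572 probe sets, with 19505 distinct symbols, and left 2634 unnamed here. Symbols were updated through the RefSeq gene table (GRCm38.p6).

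The values were fitted as deposited with limma 3.58.1 in R 4.3.3 (lmFit and eBayes, a mean per group, 12 samples, 8 residual degrees of freedom). The 6 comparisons were two-sided, with Benjamini-Hochberg adjustment over all probe sets in each, and an adjusted p under 0.05 was called a change. The code of the fit was tested on simulated data with independent errors, which does not measure how reliable the calls on these samples are. Errors are standard errors of the fit. Tables and figures used Python 3.11.15, pandas 2.3.3 and matplotlib 3.10.9.

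The alternatives were median centring, a fresh quantile step, a filter that drops the dimmest 33.3% of probe sets, a trended robust prior, array weights (which count deviating samples less), a block for the replicate number, a fit of only the groups compared, and leaving out each sample. The genes and lists were chosen with earlier results of these data known. All genes called in any comparison were described in full, with uncalled ones by range, and of the other lists up to 4 genes called in any comparison were named, taken in order of p in Alport vehicle against wild type. A few further called genes of these lists were named beside them.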

Additional observations from a re-analysis of the deposited data

How the results depend on the processing

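Of 36 calls on the 40 genes, 18 held under every alternative (10 of 18 in Alport vehicle against wild type, 4 of 7 with losartan and 3 of 7 with metformin against Alport vehicle, 1 of 4 with metformin against wild type), and 0 differences reversed. Of 54 calls on the other pathway genes, 24 held under every alternative. The cause of each loss was not tested. Some differences that missed the threshold as deposited passed it under an alternative, among them differences of G6pc, Fbp1, Dlst, Fh1 and Mdh1. The 7 genes that rose with losartan became 12 with centred samples, 11 with a trended robust prior and 4 in a fit of only the groups compared. The 0 that fell became 2 after a new quantile normalization, 1 without the dimmest 33.3% of probe sets and 1 with the trended prior. The 7 that rose with metformin became 11 with centred samples, 12 with the trended prior and 3 with only the groups compared. Over the array, the 1096 probe sets called with metformin against Alport vehicle became 410 with only the groups compared. The 10 called between the drugs became 17 with array weights and 3 with only the groups compared, and the 122 between losartan and wild type became 195 and 285.

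Leaving out 1 sample gave 2 to 3 genes that rose and 9 to 16 that fell in Alport vehicle (2549 to 3756 probe sets over the array), 4 to 11 that rose with losartan (716 to 2073) and 4 to 10 with metformin (266 to 1320). It gave 0 to 1 higher with metformin than losartan (5 to 91), 1 to 4 higher with metformin than wild type (346 to 1019), and 37 to 62 probe sets between losartan and wild type. Over the array, 266 probe sets were called with metformin against Alport vehicle and 91 against losartan without metformin sample 3. Without Alport vehicle sample 1 the counts were 737 with losartan and 347 with metformin, and without losartan sample 2 or 3 they were 716 and 959 with losartan.

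Replicate numbers showed no sign of pairing the samples. Deviations from the group means correlated at -0.14 to 0.08 between same-numbered samples and at -0.20 to 0.26 between differently numbered ones. With 3 samples per group this check cannot exclude a weak pairing. With the replicate block the calls over the array numbered 3333 in Alport vehicle, 1545 with losartan and 910 with metformin. Among the 40 genes the block ended 2 calls, Ogdh with losartan and Pdha1 with metformin, and added Pdk2 with losartan. The alternative of other probe sets for a gene was not run, since 0 of the 40 genes had more than 1.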
